A study of Mus musculus with 9 samples.

Results

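The genes described are 10 members of 3 interleukin systems that act on intestinal lymphocytes, namely interleukin 15 (Il15, Il15ra, Il2rb, Il2rg), interleukin 18 with its relatives of the interleukin 1 family (Il18, Il18bp, Il18r1, Il33, Il1rn) and the receptor of interleukin 21 (Il21r). They were taken by symbol from a table of 54532 genes, and each symbol matched 1 row. Their RNA was measured by directional sequencing, after removal of ribosomal RNA, in 9 libraries of whole mouse duodenum, 3 per group. Control mice were wild type, with gluten given in the non-enhanced form. The CeD group received the enhanced form of this gluten stimulation and modelled celiac disease through delayed-type hypersensitivity. CeD+GR mice were that same model under the same stimulation, given beforehand composite nanoparticles of gliadin and rapamycin. Gliadin is a fraction of gluten, and rapamycin inhibits the kinase mTOR. The strain, age and sex of the mice, and whether each library came from its own animal, are not given here by any source, and p-values therefore measure only how much these samples vary, which may be technical.

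Interleukin 15 is held on the surface of the producing cell by its alpha receptor chain and shown to neighbouring lymphocytes, which carry the beta and common gamma chains. In the gut this keeps intraepithelial lymphocytes alive and cytotoxic, and in celiac disease it is known for driving them against the epithelium. Interleukin 18 is stored by enterocytes as a precursor that inflammasome caspases cleave, and its binding protein is a secreted decoy. Interleukin 33 is a nuclear alarm signal of stromal, endothelial and epithelial cells, Il1rn encodes the antagonist that occupies the interleukin 1 receptor, and interleukin 21 is a helper T cell product that acts through Il21r and the common gamma chain.

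None of the 9 members tested passed the test in any comparison, but for 3 of these the means differed by a factor near or above 2. The remaining member, Il1rn, was too low to test, and its CeD+GR mean was raised by 1 library. Il21r was lower in CeD than in control, Il33 averaged higher in both groups of the model than in control, and Il18 averaged lower in CeD+GR than in either other group. Il15 itself had similar means in control and CeD and was far apart between CeD+GR libraries. The bases that precede the transcription starts of these 3 tested genes are shown here so that the genes can be placed in the genome. They are the 250 bases before each start in RefSeq (GRCm38.p6, the assembly of mm10), 5′ to 3′, all on the plus strand. The Il21r sequence is chr7:125603179-125603428, the Il18 sequence chr9:50554450-50554699 and the Il33 sequence chr19:29924863-29925112, and none of these bases lies in an annotated exon of GENCODE M21. The Il18 sequence lies within the neighbouring gene Bco2, and the Il33 sequence belongs to the upstream one of its 2 listed starts. Capitals mark every match, on either strand, to 6 short motifs.
Il21r: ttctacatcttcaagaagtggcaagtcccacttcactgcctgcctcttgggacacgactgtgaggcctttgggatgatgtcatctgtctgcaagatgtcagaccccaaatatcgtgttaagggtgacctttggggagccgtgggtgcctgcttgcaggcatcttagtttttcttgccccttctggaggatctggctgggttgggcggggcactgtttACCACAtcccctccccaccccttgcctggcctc
Il18: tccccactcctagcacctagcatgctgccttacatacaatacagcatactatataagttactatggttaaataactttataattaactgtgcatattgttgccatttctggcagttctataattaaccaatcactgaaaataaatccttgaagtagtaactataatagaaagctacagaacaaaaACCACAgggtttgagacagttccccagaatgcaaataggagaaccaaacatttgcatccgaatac
Il33: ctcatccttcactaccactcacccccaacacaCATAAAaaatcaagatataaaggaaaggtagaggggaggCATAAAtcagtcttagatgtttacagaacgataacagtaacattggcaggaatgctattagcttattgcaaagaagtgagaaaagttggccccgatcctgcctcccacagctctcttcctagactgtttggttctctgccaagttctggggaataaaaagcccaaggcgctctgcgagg
The matches in Il21r and Il18 are ACCACA, the reverse of the RUNX motif TGTGGT, beginning 33 and 65 bases before the start, and those in Il33 are CATAAA, the reverse of the CDX motif TTTATG, at 218 and 179 bases. Of the 32851 RefSeq promoters in the table, 14.0% held the RUNX motif and 10.8% the CDX motif in the same 250 bases.

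The promoter table used here held 8 of the 10 members, with 14 starts. Those of Il15 and Il2rb were not used here. Of these 14 windows 3 held the RUNX motif (Il18, Il21r and Il2rg) and 2 the CDX motif (Il1rn and Il33). The AP-1 motif TGANTCA was in 2 windows (Il15ra and Il1rn, against 6.75% of all promoters) and the STAT motif TTCNNNGAA in 1, of Il18r1 (7.02%). The paired interferon regulatory factor element (2.98%) and the NF-kB element (1.21%) had 0 matches among the members. A match describes the letters only, and the motifs were chosen after the sequences had been seen.

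Between 15373260 and 16852104 reads per library were counted on genes. The deposited FPKM, a read count scaled to gene length and to a size per library, were compared between groups as log2(FPKM + 0.5) with limma in a single fit. On that scale the fold changes of weakly expressed genes are understated. The library size that the FPKM imply was not the number of reads counted on genes. It was 18206426 in control 1, with 16185014 reads counted, and 14641212 in control 2, with 16372119 reads counted. How these sizes were set is not given. Epithelial markers (Epcam, Cdh1, Vil1, Krt8, Krt19 and Fabp1) were present in every library, at 4757 to 9192 FPKM in sum. Some libraries stood apart in markers of other cells. In CeD+GR 3 the 4 gastric and Brunner gland mucous markers summed to 137881 FPKM, against 50.4 FPKM or less elsewhere. The 6 pancreas markers summed to 3073 FPKM in CeD 1 and to at most 41.2 FPKM elsewhere, and the 4 fat markers to 260 FPKM in CeD+GR 2 and at most 86.6 FPKM elsewhere. The 5 Paneth cell markers summed to 994 to 2000.5 FPKM in the replicate 1 library of each group and to 68.8 to 163 FPKM in the other 6. In the plot of levels by library, CeD+GR 3 was the highest or lowest library for 7 of the 10 members, more often than any other library, and the next was control 3, for 3 members.

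**Figure D1:**
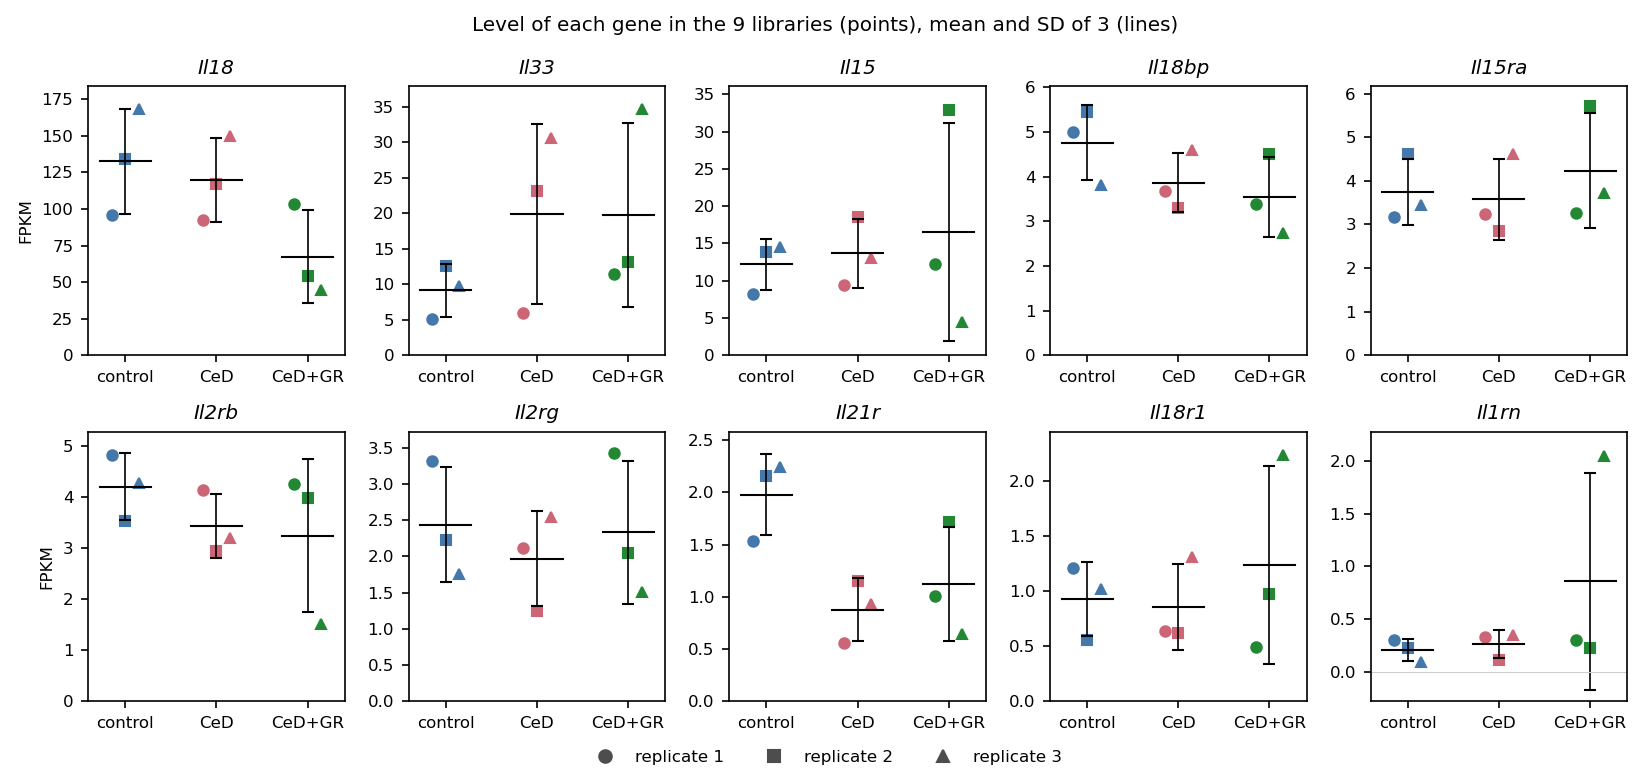
Each panel shows the FPKM of 1 gene in the 9 libraries, with the group on the horizontal axis, the marker shape giving the replicate number, and black lines for the mean and SD of 3 libraries. The 3 control values of Il21r lie above the 3 CeD values, and CeD+GR 2 and 3 hold the lowest Il18.

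Levels per gene length covered a wide range. Il18 was the most abundant member, at 107 FPKM on average over the 9 libraries, followed by Il33 at 16.3 and Il15 at 14.1 FPKM. Il18bp, Il15ra and Il2rb formed a middle group at 4.05, 3.85 and 3.62 FPKM, and Il2rg, Il21r, Il18r1 and Il1rn followed at 2.25, 1.33, 1.01 and 0.443 FPKM. Il18 exceeded Il33 in 9 of 9 libraries, by 2.83 ± 1.22 on the log2 scale (SD, n = 9), and Il15 exceeded Il18bp in 9 of 9. Neighbours in the order that did not separate beyond their spread were Il33 and Il15 (Il33 higher in 3 of 9 libraries), Il18bp and Il15ra (Il18bp higher in 6 of 9), Il15ra and Il2rb (Il15ra higher in 4 of 9) and Il21r and Il18r1 (Il21r higher in 6 of 9). Reads per library ran from 748 to 2922 for Il18, but only from 33 to 126 for Il21r and from 9 to 185 for Il1rn. Il1rn did not reach the mean of 0.5 FPKM required for the test and is given as values only, so 9 of the 10 members were tested.

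Among the ligands, Il15 (ENSMUSG00000031712, mm10 chromosome 8, 82331632 to 82403222, minus strand) had values of 8.26, 13.8 and 14.6 FPKM in control 1 to 3, against 9.45, 18.5 and 13.0 FPKM in CeD 1 to 3. The 2 groups overlapped, with a log2 fold change of 0.15 (SE 0.61). CeD+GR 1 to 3 had 12.3, 32.9 and 4.46 FPKM, so that the highest and the lowest of the 9 values were in 1 group. The log2 fold change of CeD+GR against CeD was -0.09 (SE 0.61). Leaving out CeD+GR 2 gave -0.78 and leaving out CeD+GR 3 gave 0.59, so the direction rested on single libraries. CeD+GR 2 was the library with high fat markers and CeD+GR 3 that with gastric transcripts; their part in these values was not tested.

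Il18 (ENSMUSG00000039217, chromosome 9, 50554827 to 50581840, plus strand) had 96.2, 134 and 168 FPKM in control 1 to 3, against 92.5, 117 and 150 FPKM in CeD 1 to 3. The means were 133 ± 35.9 and 120 ± 28.8 FPKM (SD, n = 3), a ratio of 0.904, smaller than the spread. In CeD+GR 1 to 3 it stood at 104, 54.2 and 44.4 FPKM. Replicates 2 and 3 thus lay below all 6 libraries of the other groups, while replicate 1 lay within their range. The mean of 67.4 ± 31.7 FPKM was 0.562 times that of CeD and 0.508 times that of control. The log2 fold changes were -0.90 (SE 0.37) against CeD and -1.03 (SE 0.37) against control, and neither passed (limma, adjusted p = 1 for both). The replicate 1 libraries, which were high in Paneth cell transcripts, held 92.5 to 104 FPKM of Il18 in all 3 groups. With replicates 2 and 3 only, the log2 fold change against CeD was -1.43 (limma, adjusted p = 0.8), and without CeD+GR 3 it was -0.65. The epithelial markers summed to 6932 and 5206 FPKM in CeD+GR 2 and 3 and to 4757 to 8811 FPKM in CeD. In CeD+GR 3 single markers went both ways. Vil1 stood at 257 FPKM, against 477 to 927 FPKM in CeD. Krt19 stood at 659 FPKM, against 237 to 448 FPKM in CeD. The others lay within the CeD range in that library. In CeD+GR 2, Krt19 stood at 141 and Epcam at 992 FPKM, the latter against 444 to 831 in CeD. The part of these markers in the Il18 values was not tested. Bulk tissue cannot tell fewer cells of a type from less RNA per cell. The first 355 bases of Il18 overlap Bco2 (63.6 FPKM on average), a carotene-cleaving enzyme gene of the opposite strand, and Tex12 (3.70 FPKM) lies within Il18 on that strand. The sources used here do not give the strand setting of the counting, so reads from the shared bases cannot be told apart.

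Il33 (ENSMUSG00000024810, chromosome 19, 29925114 to 29960718, plus strand) stood at 5.18, 12.5 and 9.72 FPKM in control 1 to 3. CeD 1 to 3 had 5.93, 23.2 and 30.5 FPKM, and CeD+GR 1 to 3 had 11.4, 13.2 and 34.7 FPKM. CeD 2, CeD 3 and CeD+GR 3 were the high libraries, CeD+GR 2 lay just above the highest control, and the replicate 1 libraries of CeD and CeD+GR were within the control range. The means were 9.14 ± 3.72, 19.9 ± 12.6 and 19.7 ± 13.0 FPKM (SD, n = 3), ratios to control of 2.17 and 2.16. The log2 fold changes against control were 0.88 (SE 0.65) in CeD and 0.97 (SE 0.65) in CeD+GR, and the 2 comparisons share the control libraries. Neither passed (limma, adjusted p = 1 for both). Without CeD 1 the fold change in CeD was 1.57 and without CeD 3 it was 0.44. In CeD+GR it was 0.48 without CeD+GR 3, the library with gastric transcripts, whose part was not tested. Compared by number, Il33 was higher in CeD in 3 of 3 pairs, by 0.18, 0.86 and 1.60 on the log2 scale, as were 16.0% of all tested genes. The 4 fibroblast markers (Dcn, Lum, Col1a1 and Pdgfra) summed to 12.1 to 34.0 FPKM in control, 19.2 to 44.7 in CeD and 25.4 to 33.1 in CeD+GR. The 5 endothelial markers summed to 6.41 to 20.8, 6.64 to 19.0 and 18.3 to 21.7 FPKM. In CeD 1 to 3 the fibroblast markers summed to 44.7, 19.2 and 35.5 FPKM. The 3 smooth muscle markers (Acta2, Myh11 and Des) summed to 222 to 315 FPKM in control and 89.7 to 320 in CeD+GR. In CeD 1 to 3 they summed to 199, 373 and 734 FPKM. All fibroblast and smooth muscle markers were positive in CeD against control, with medians of 0.77 and 0.49, and 0 were called. The part of these cells in the Il33 values was not tested.

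Of the inhibitors, Il18bp (ENSMUSG00000070427, chromosome 7, 102014885 to 102018690, minus strand) ran from 2.73 to 5.44 FPKM. It varied least of all 10 members, though Il15ra was nearly level (SD 0.28 and 0.29 on the log2 scale over the 9 libraries). The Il18bp values were 5.01, 5.44 and 3.82 FPKM in control, 3.69, 3.30 and 4.59 FPKM in CeD and 3.39, 4.51 and 2.73 FPKM in CeD+GR. The groups overlapped, with log2 fold changes of -0.27 (SE 0.24) in CeD and -0.39 (SE 0.24) in CeD+GR against control. Its last 80 bases overlap Numa1 (16.1 FPKM) on the opposite strand. Il1rn (ENSMUSG00000026981, chromosome 2, 24336853 to 24351494, plus strand) stood at 2.04 FPKM in CeD+GR 3 and at 0.0964 to 0.351 FPKM in the other 8 libraries. The group mean of 0.859 ± 1.03 FPKM in CeD+GR (SD, n = 3) therefore came from 1 library, the one with gastric transcripts.

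Il15ra (ENSMUSG00000023206, chromosome 2, 11705290 to 11734317, plus strand), the chain that presents interleukin 15, stood at 3.17, 4.61 and 3.44 FPKM in control. The CeD values were 3.24, 2.86 and 4.63 FPKM and the CeD+GR values 3.25, 5.73 and 3.73 FPKM. The groups overlapped and the log2 fold changes ran from -0.07 to 0.21 over the 3 comparisons (SE 0.27 each). The highest Il15ra and the highest Il15 were both in CeD+GR 2. Markers of macrophages and dendritic cells, which present interleukin 15, summed to 37.2 to 84.7 FPKM in control, 39.0 to 67.4 in CeD and 49.2 to 92.3 in CeD+GR.

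Of the signalling chains of the interleukin 15 receptor, Il2rb exceeded Il2rg in 9 of 9 libraries, by 0.59 ± 0.36 on the log2 scale (SD, n = 9). Il2rb (ENSMUSG00000068227, chromosome 15, 78479256 to 78495271, minus strand), the beta chain shared with interleukin 2, stood at 4.82, 3.52 and 4.27 FPKM in control and at 4.13, 2.95 and 3.20 FPKM in CeD. In CeD+GR it stood at 4.25, 3.97 and 1.51 FPKM, and CeD+GR 3 was the lowest of all 9 libraries. Il2rg (ENSMUSG00000031304, chromosome X, 101264378 to 101268255, minus strand), the common gamma chain, stood at 3.31, 2.23 and 1.76 FPKM in control, 2.11, 1.25 and 2.54 FPKM in CeD and 3.44, 2.05 and 1.51 FPKM in CeD+GR. For both chains the groups overlapped in every comparison, and log2 fold changes in CeD against control were -0.26 (SE 0.34) for Il2rb and -0.25 (SE 0.34) for Il2rg. Gm20489, an overlapping gene model on the same strand as Il2rg, is listed at 0 in every library.

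Il21r (ENSMUSG00000030745, chromosome 7, 125603429 to 125633570, plus strand) stood at 1.54, 2.16 and 2.25 FPKM in control and at 0.557, 1.15 and 0.931 FPKM in CeD. No CeD value reached the lowest control value. CeD+GR 1 to 3 stood at 1.01, 1.72 and 0.644 FPKM, between and across the other groups. The CeD mean was 0.444 times that of control, with a log2 fold change of -0.86 (SE 0.32), which did not pass (limma, adjusted p = 1). With the libraries of the same number taken as pairs, Il21r was lower in CeD in 3 of 3 pairs, by 0.95, 0.69 and 0.94 on the log2 scale. Because the 2 groups did not overlap, any pairing would give this count, and it adds nothing to that separation. Il2rb and Il18 were also lower in 3 of 3 pairs, and 16.8% of all tested genes were. CeD+GR against CeD gave 0.21 (SE 0.32).

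Il18r1 (ENSMUSG00000026070, chromosome 1, 40465552 to 40500854, plus strand), the ligand-binding chain for interleukin 18, stood at 1.21, 0.553 and 1.02 FPKM in control and at 0.640, 0.619 and 1.31 FPKM in CeD. In CeD+GR it stood at 0.496, 0.975 and 2.23 FPKM, the lowest and the highest of the 9 values. Its partner Il18rap had a mean below 0.5 FPKM, at 0.192 to 0.799 FPKM, and was not tested.

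Across the 9 tested members, 0 passed in each comparison at an adjusted p of 0.05, as did 0.0% of all 14683 tested genes. CeD against control had 2 members positive and 7 negative, with a median log2 fold change of -0.14 beside 0.00 over all tested genes. In this comparison 1 member, Il21r, had groups that did not overlap, and 4.69% of all tested genes did so in either direction and 2.49% with CeD lower. For CeD+GR against CeD, 5 members were positive and 4 negative, with a median of 0.09 beside 0.01, and for CeD+GR against control 4 were positive and 5 negative, with a median of -0.08 beside 0.00. In these comparisons 0 members had groups apart, against 6.05% and 5.58% of all tested genes. At an unadjusted p under 0.05 limma gave 1 member in each comparison, Il21r in the first and Il18 in the others, against 0.701%, 2.89% and 2.72% of all tested genes. Limma-voom on recovered reads, run with the library sizes that the FPKM imply, also gave 0 calls.

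**Figure D2:**
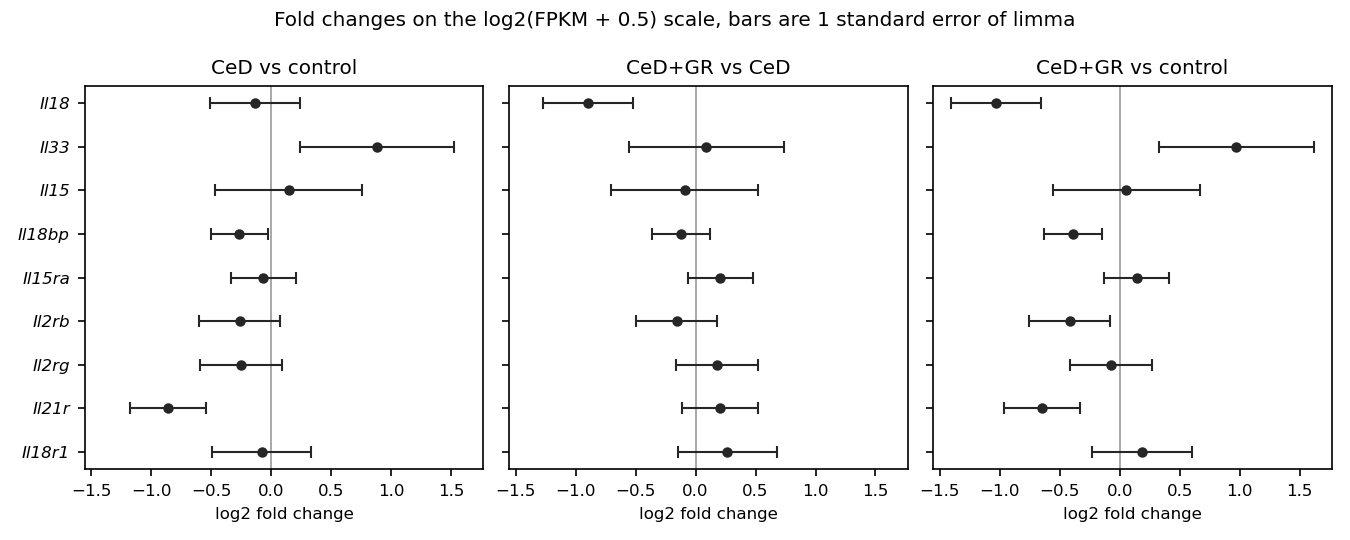
Points are log2 fold changes of the 9 tested members on the log2(FPKM + 0.5) scale in the 3 comparisons, and bars are 1 standard error. Il21r sits at -0.86 in CeD against control and Il18 at -0.90 and -1.03 in the comparisons of CeD+GR.

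Ligands were also compared with their partners within each library, as differences of log2 levels. Il18 exceeded its binding protein by 12.0 to 44.0 times in FPKM. The log2 difference of Il18bp minus Il18 was -4.13, -4.50 and -5.29 in control 1 to 3 and -4.47, -4.95 and -4.89 in CeD 1 to 3. In CeD+GR 1 to 3 it was -4.74, -3.45 and -3.80, so replicates 2 and 3 were above all 6 other-group libraries and replicate 1 was within their range. The difference between CeD+GR and CeD was 0.77 (two-sided exact permutation p = 0.2; adjusted p = 0.9 over 9 such tests), and 3 libraries against 3 cannot give a p under 0.1.

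Il15 exceeded Il15ra in 9 of 9 libraries, by 1.2 times in CeD+GR 3 and by 6.49 times in CeD 2. Il15ra minus Il15 averaged -1.56 ± 0.35, -1.77 ± 0.64 and -1.47 ± 1.12 on the log2 scale in control, CeD and CeD+GR (SD, n = 3), with no separation of the groups. Il2rb minus Il2rg averaged 0.70 ± 0.32, 0.70 ± 0.37 and 0.36 ± 0.41. The exact permutation p-values of these 2 pairs ran from 0.2 to 1 (two-sided). The plot of paired differences shows the overlap of all 3 groups for both.

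**Figure D3:**
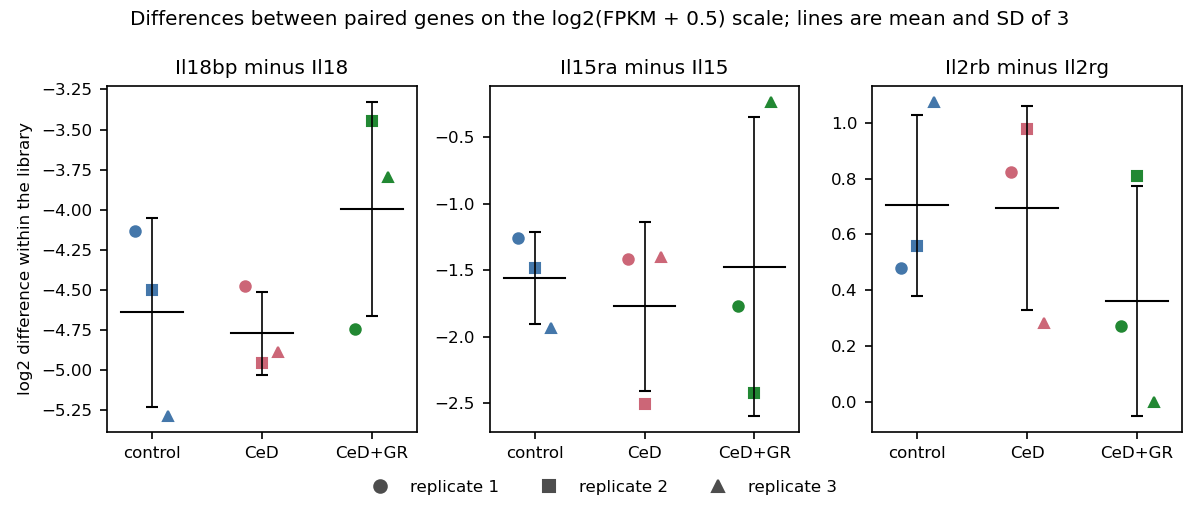
Each panel gives, for every library, the log2(FPKM + 0.5) of 1 gene minus that of its partner, with the mean and SD of 3 libraries as black lines and the marker shape for the replicate number. CeD+GR 2 and 3 have the smallest gap between Il18bp and Il18, at -3.45 and -3.80.

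The receptor chains are carried by lymphocytes, so their levels were set beside 10 tested T cell and intraepithelial lymphocyte markers (Cd3d, Cd3e, Cd3g, Cd8a, Cd8b1, Cd2, Lck, Gzma, Gzmb and Itgae). The mean log2 level of these markers was 3.00, 3.21 and 3.17 in control, 2.27, 2.58 and 2.49 in CeD and 2.85, 3.13 and 1.88 in CeD+GR. All 10 had a negative log2 fold change in CeD against control, with a median of -0.61, and 0 were called. For 6 of the 10 every CeD library lay below every control library, against 2.49% of all tested genes. In summed FPKM all 11 listed markers, with Cd247, ran from 231 to 385 in control, 130 to 173 in CeD and 89.7 to 269 in CeD+GR, and none was at 0 in any library.

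Il21r minus this marker mean was -1.98, -1.80 and -1.71 in control, -2.19, -1.86 and -1.97 in CeD and -2.25, -1.98 and -1.69 in CeD+GR. Set against the markers, the groups overlapped and the means differed by less than on the absolute scale, at -1.83 ± 0.14, -2.01 ± 0.17 and -1.97 ± 0.28 (SD, n = 3). The 0.5 FPKM added before the log shrinks changes of Il21r more than those of the more abundant markers, so these differences depend on it. With 0.1 added, the log2 fold change of Il21r in CeD against control was -1.12. The difference to the markers was not computed at that setting. For Il2rb the difference to the markers averaged -0.90 ± 0.30 in control, -0.48 ± 0.38 in CeD and -0.82 ± 0.19 in CeD+GR. Il2rg averaged -1.61 ± 0.48, -1.18 ± 0.51 and -1.18 ± 0.52. Il18r1 averaged -2.64 ± 0.46, -2.04 ± 0.39 and -1.95 ± 1.32, with CeD+GR 3 alone at -0.43. The 5 natural killer cell markers, of cells that carry Il2rb and Il18r1, summed to 18.6 to 27.6 FPKM in control, 8.72 to 15.1 in CeD and 10.6 to 27.8 in CeD+GR, and Ncr1 and Klrb1c were each listed at 0 in 2 libraries. Most of each sum was Klrd1 and Nkg7. Klrd1 stood at 7.03, 11.8 and 11.2 FPKM in control 1 to 3 and at 2.93, 2.49 and 2.75 in CeD 1 to 3. Nkg7 stood at 10.3, 13.2 and 15.6 FPKM in control and at 5.03, 8.05 and 12.1 in CeD, so these 2 groups overlapped for it. Ncr1 averaged 0.0357 FPKM in control and 0.125 in CeD, while Klrb1c and Prf1 averaged lower in CeD. The part of lymphocyte content in the receptor values was not tested beyond these differences. Among B cell markers, which also mark carriers of Il21r, the sum ran from 4.40 to 11.6 FPKM in control, 5.32 to 10.3 in CeD and 3.70 to 9.40 in CeD+GR.

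**Figure D4:**
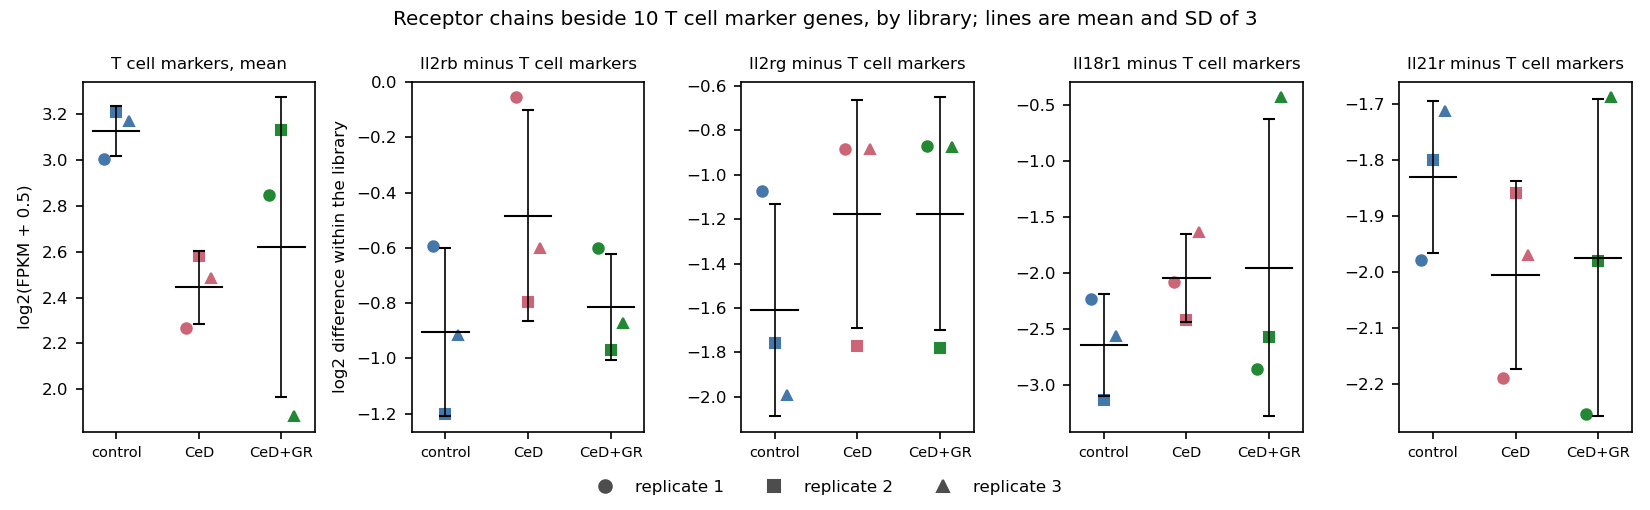
The left panel gives the mean log2(FPKM + 0.5) of 10 T cell markers in every library, and the others give the level of 1 receptor chain minus that mean in the same library, with the mean and SD of 3 as black lines. The markers run from 2.27 to 2.58 in CeD, below all control libraries, while Il21r relative to them overlaps between the groups.

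Other genes of these pathways were taken from fixed lists. Of 18 genes of the common gamma chain family, 10 were tested and 0 were called in any comparison. The median log2 fold change was -0.14 in CeD against control and 0.17 in CeD+GR against CeD. The ligands Il2, Il4, Il9, Il13, Il21 and Tslp were below the mean of 0.5 FPKM, and Il21 had 2 reads in all 9 libraries. Il13ra1, a chain of the interleukin 13 receptor, had means of 39.3 ± 4.92 FPKM in control, 49.0 ± 12.5 in CeD and 40.5 ± 9.93 in CeD+GR (SD, n = 3). Il4ra averaged 14.7 ± 0.294, 13.7 ± 3.50 and 17.2 ± 5.87 FPKM, and Crlf2, the TSLP receptor, 5.91 ± 1.23, 4.90 ± 0.937 and 6.78 ± 1.01 FPKM.

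All 17 genes of the JAK-STAT steps below these receptors were tested and 0 were called, with medians of -0.07 and -0.01 in the first 2 comparisons. Stat5b, a transcription factor activated by interleukin 15, averaged 5.36 ± 0.730 FPKM in control, 4.59 ± 0.721 in CeD and 4.12 ± 0.317 in CeD+GR (SD, n = 3). Socs1, a feedback inhibitor, averaged 2.22 ± 0.598, 1.63 ± 0.827 and 1.52 ± 0.575 FPKM. The kinase Jak2 had a log2 fold change of -0.50 (SE 0.37) in CeD+GR against CeD, Socs2 of 0.23 (SE 0.18) and the phosphatase Ptpn2 of 0.28 (SE 0.23).

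In the interleukin 1 family 21 of 25 listed genes were found by symbol, 17 were tested and 0 were called, with medians of -0.08 and 0.15. Myd88, the shared adaptor, averaged 15.6 ± 1.08, 13.2 ± 2.34 and 15.3 ± 0.892 FPKM (SD, n = 3). Il1rl1, the receptor of interleukin 33, had a log2 fold change of 0.96 (SE 0.55) in CeD+GR against CeD and stood at 1.62, 0.322 and 2.67 FPKM in CeD+GR 1 to 3. Irak3, an inhibitory kinase of the pathway, stood at 2.98 FPKM in CeD+GR 3 and at 0.778 FPKM or less elsewhere. CeD+GR 3 was thus the highest library for Il33, Il1rl1, Irak3, Il18r1 and Il1rn.

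Of 15 inflammasome genes, 12 were tested and 0 were called, with medians of 0.11 and -0.14. Nlrp6, an epithelial sensor known for its part in interleukin 18 release, stood at 71.2, 75.9 and 57.1 FPKM in control, 61.2, 56.4 and 58.3 in CeD and 50.5, 40.9 and 23.6 in CeD+GR. All CeD+GR libraries lay below all libraries of the other groups, as they did for 3.04% of all tested genes in each of the 2 comparisons. Its log2 fold change against CeD was -0.67 (SE 0.29), not called. Casp1, the caspase that cleaves the interleukin 18 precursor, was chosen after its values were seen. It stood at 64.6, 57.9 and 46.8 FPKM in control, at 56.6 to 63.7 FPKM in CeD and at 98.9, 48.8 and 31.7 FPKM in CeD+GR. Its log2 fold change in CeD+GR against CeD was -0.18 (SE 0.38). Nlrp1b and Naip1 had log2 fold changes of -0.45 (SE 0.38) and -0.37 (SE 0.28) in CeD+GR against CeD. Aim2, Nlrc4 and Pycard had -0.51 (SE 0.38), 0.18 (SE 0.17) and -0.43 (SE 0.49) in CeD against control. Of 16 interferon gamma response genes, all tested, 14 were negative in CeD against control, with a median of -0.28 and 0 called.

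Among 10700 named protein-coding genes averaging 1 FPKM or more, those with the profile nearest to each member over the 9 libraries were found by the root mean square difference of log2 levels, each centred on its own mean. For Il21r they were Cd7 (0.14) and Cd8a (0.17), both surface proteins of T cells. For Il2rb they were Rab8b (0.10), a vesicle GTPase, and Ptprc (0.11), the leukocyte antigen CD45. The nearest to Il18bp were Trim21 (0.10), an antibody receptor of the cytosol, and Cyth4 (0.11), and to Il2rg Irf5 (0.15) and Atoh8 (0.17), both transcription factors. For Il15 they were Dnah2 (0.16), a dynein, and Aqp7 (0.16), a glycerol channel of fat and other tissues, and for Il18 Gstm6 (0.23), a glutathione transferase, and Slc35f2 (0.25). For Il15ra they were Pqlc2 (0.09) and Mettl25 (0.10), and for Il18r1 Trip6 (0.15) and Ppp1r3b (0.16). For Il33 they were Gcnt3 (0.43), a mucin glycosyltransferase, and Mien1 (0.43). The measure is not scaled to a gene's own spread, and Il33 had the largest of the members, with a SD of 0.93 on the log2 scale over the 9 libraries. All profiles share the same 9 libraries and their differences in cell make-up.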

How the data were processed

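RNA was measured in 9 libraries, 3 per group. The authors deposited FPKM values in 1 table with gene lengths in bases, mm10 coordinates and 9 library columns. According to the submitters' processing notes, HISAT2 2.0.5 and featureCounts 1.5.0-p3 were among the tools, with fastp and DESeq2 1.20.0, and mm10 was the build. No source used here gives the annotation, strand setting or FPKM formula. Multiplied by gene length, 100% of the FPKM values above 0 were whole numbers of a library's own unit, to within 0.1 reads. This gave the reads printed, 15373260 to 16852104 per library, and for CeD against control the standard error of log2 fold changes had a median of 0.35.

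The 14683 genes averaging 0.5 FPKM or more were fitted as log2(FPKM + 0.5) in 1 group-means model with limma 3.58.1 in R 4.3.3, with a mean-variance trend and Benjamini-Hochberg adjustment at 0.05, two-sided. The steps were tested on simulated data. Named genes are the members, per pathway list and comparison the 3 with the smallest unadjusted p, and the 2 genes nearest to each member. One gene that this rule names is not reported here. Members and lists were chosen with earlier results of these data known. Deviations from group means of same-numbered libraries correlated, across genes, at 0.71, 0.37 and 0.41 between control and CeD. CeD+GR 1 correlated at 0.41 with control 1 and 0.37 with CeD 1, and CeD+GR 2 at 0.40 with control 2 and 0.25 with CeD 2. CeD+GR 3 stood at -0.11 and -0.12. Because of that library the numbers were taken to pair control and CeD only, although CeD+GR 1 and 2 had positive values. Control 2 correlated more with CeD 3 (0.46) than with CeD 2, and control 3 with CeD 2 at 0.17, so this pairing is weak. The alternatives were other pseudocounts, filters, weights and scaling, a replicate block, limma-voom and libraries left out.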

Additional observations from a re-analysis of the deposited data

How the results depend on the processing

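No member passed the test under any of the alternatives run. Of 516 alternative values for the 27 member comparisons, 470 kept the direction, and 11 of the 27 comparisons kept it throughout, among them Il21r and Il33 in CeD against control and Il18 in CeD+GR against both groups. Part of the 516 could not change direction, so the share that kept it is inflated. The other filters, the replicate block and leaving out a library of the group not compared leave the fold change as it was. Genes called stayed at 0 in every setting, except for 1 in CeD+GR against control without control replicate 1 (range without 1 library 0 to 1). Direction changed as follows, in log2 units, and the cause was not tested. With CeD 1 and CeD+GR 3 left out, CeD+GR against CeD became 0.36 for Il15, 0.37 for Il2rb, 0.0054 for Il18bp, -0.23 for Il18r1 and -1.09 for Il33, and -0.14 for Il15ra minus Il15. In the same setting CeD+GR against control became 0.14 for Il2rg, -0.21 for Il18r1 and -0.53 for Il15ra minus Il15, and CeD against control 0.036 for Il18 and 0.025 for Il18r1. Array weights gave 0.15 for Il2rb and -0.55 for Il33 in CeD+GR against CeD, and -0.11 for Il15, -0.066 for Il15ra, 0.32 for Il2rg and -0.017 for Il18r1 in CeD+GR against control. Replicates 2 and 3 only gave -0.027 for Il2rg and -0.31 for Il33 in CeD+GR against CeD, -0.19 for Il15 in CeD+GR against control and 0.17 for Il18r1 in CeD against control. Il2rb minus Il2rg in CeD against control became 0.012 with a pseudocount of 0.1 and 0.0040 with quantile normalization.

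Il33 in CeD+GR against control ran from 0.48 to 1.27 without 1 library and was 0.44 with array weights. For other results, leaving out 1 library at a time gave ranges that crossed 0. In CeD against control they were -0.10 to 0.37 for Il15, -0.24 to 0.075 for Il15ra, -0.35 to 0.051 for Il18, -0.31 to 0.063 for Il18r1, -0.45 to 0.12 for Il18bp minus Il18, -0.40 to 0.15 for Il15ra minus Il15 and -0.15 to 0.20 for Il2rb minus Il2rg. In CeD+GR against CeD they were -0.78 to 0.59 for Il15, -0.0088 to 0.38 for Il15ra, -0.38 to 0.24 for Il2rb, -0.087 to 0.40 for Il2rg, -0.29 to 0.029 for Il18bp, -0.13 to 0.60 for Il18r1, -0.045 to 0.43 for Il21r, -0.60 to 0.53 for Il33 and -0.32 to 0.77 for Il15ra minus Il15. In CeD+GR against control they were -0.64 to 0.74 for Il15, -0.076 to 0.29 for Il15ra, -0.34 to 0.14 for Il2rg, -0.21 to 0.52 for Il18r1 and -0.53 to 0.56 for Il15ra minus Il15.

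With the replicate block the number of genes called was 0 in each comparison. In control and CeD only, a fit added after seeing the data, Il21r kept its fold change of -0.86 with a SE of 0.14 (limma, adjusted p = 0.62). Unadjusted p-values under 0.05 were then given by 418 higher and 681 lower genes, against 40 and 63 without pairing, and the block changed no call. The SE of Il33 in CeD against control was 0.30 in that fit (limma, adjusted p = 0.62). Reads per library were fewest for Il1rn, Il21r and Il18r1, at 9 to 185, and each group had 3 libraries.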
